A study of Arabidopsis thaliana with 24 samples.

Results

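Pre-mRNA splicing in red-grown seedlings of the rrc1-689 mutant of Arabidopsis thaliana was compared with that of Col-0, the wild type whose background the mutant shares. The members are the 328 splicing events, in 270 genes, that the authors listed for this comparison, of 517 events listed in either of their red-light comparisons. The authors kept an event where the pooled inclusion or retention fraction differed by more than 0.05 and the false discovery rate was below 0.05. The same 6 libraries therefore chose the events and gave the values below, and the refitted tests show how far the libraries of a group agree, not independent evidence of a difference.

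RNA came from whole seedlings of rrc1-689 and Col-0, with 3 libraries each, to find splicing that depends on RRC1. After 2 days of cold, germination was induced by white light (6 h at 50 µmol/m2s), and the seedlings then stayed in continuous red (19 µmol/m2s) until 60 h. The labels name 4 °C for both light steps. A second rrc1 mutant, EMS27, was used further on with its control MLB (ML1pro::PHYB in phyB-9, in which the ML1 promoter, known for epidermal expression, drives the photoreceptor gene), grown in the same red light with 3 libraries each. The labels do not say whether a group's libraries are separate cultures, and the p-values measure only the spread between them, which may be technical. No listed event lay in RRC1 or PHYB, so neither gene could be used to check the genotypes.

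Splicing removes introns from pre-mRNA by joining a 5′ splice site, usually GT, to a 3′ splice site, usually AG. The 3′ splice site is recognised together with a branch point and a pyrimidine-rich tract, which binds the U2AF heterodimer, and SR proteins help to define which of several candidate sites is used. RRC1 is an SR-like splicing factor known for its role in phytochrome B signalling. In plants, introns left in the transcript are the most common form of alternative splicing, and many splicing factor genes have alternatively spliced transcripts of their own.

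The level of an event is the percentage of reads that support inclusion, computed for each library from reads over splice junctions or exon-intron boundaries. For an intron it is the share of reads over its boundaries. This is called retention below, although a read over 1 boundary need not come from a transcript that keeps the whole intron. For an exon the level is the included share. For an alternative 3′ splice site it is the share of transcripts that use the upstream acceptor and so lengthen the exon. The events held 34004 to 35423 reads per rrc1-689 library and 36784 to 38559 per Col-0 library, which are sums over listed events and not library depths. The median event had 51 to 54.5 reads in an rrc1-689 library and 60 to 67 in a Col-0 library, and 22 events had under 10 reads in at least 1 library. Another annotated gene overlapped 26 events, and since the strand setting of the counting is not given, their reads may belong to either gene.

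Levels were higher in rrc1-689 in 234 events and lower in 94, with a median level over all events of 14.7% in rrc1-689 and 7.0% in Col-0. In the limma fit on the log odds of the level, with Benjamini-Hochberg adjustment over the 328 events, 291 passed an adjusted p of 0.05 (88.7%), 208 of them higher in rrc1-689 (63.4%) and 83 lower (25.3%). The 3 libraries of rrc1-689 did not overlap the 3 of Col-0 in 303 events (92.4%). Since the authors' list was drawn from the same reads, these shares describe how steady the listed events were.

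The share of events that were higher in rrc1-689 differed between kinds of event. Among 39 alternative 3′ splice sites, 34 were higher in rrc1-689 and 5 lower, and among 15 skipped exons 13 were higher and 2 lower. All 6 alternative 5′ splice sites were higher. Introns that every annotated isoform removes were higher in 107 of 147 cases (72.8%), and introns that an annotated exon splits were higher in 48 of 68 (70.6%). Both shares were close to the 71.3% over all events. Annotated retained introns, which some isoform keeps, went both ways, 24 higher and 27 lower in rrc1-689, and their median difference was -8.47 percentage points, against 8.41 over all events. The authors' threshold leaves few events near 0, so with a nearly even split this median falls on 1 side of the gap. The median level of annotated retained introns was 14.8% in rrc1-689 and 13.7% in Col-0. Introns that every annotated isoform removes had a Col-0 median of 3.88%. An event with a Col-0 fraction below 0.05 could be listed only as higher, so the kinds differed in their room to fall. Whether this accounts for the split by kind was not tested. The median level of alternative 3′ splice sites was 26.8% in rrc1-689 and 5.07% in Col-0. By library, that median was 26.8%, 27.5% and 29.9% in rrc1-689, against 5.90%, 4.23% and 5.41% in Col-0.

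**Figure D1:**
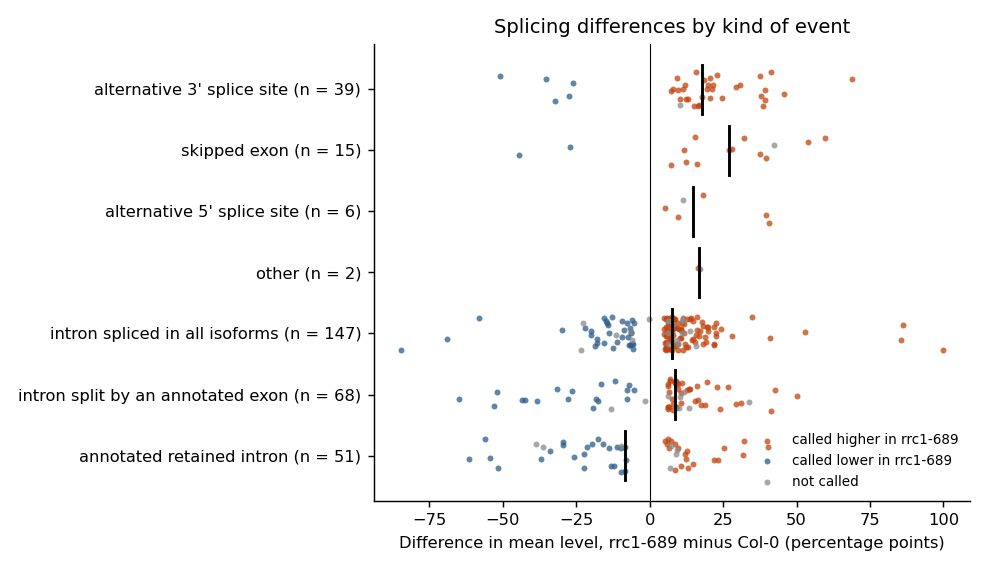
Difference in mean level between rrc1-689 and Col-0 in percentage points (x axis), 1 point per event, by kind of event. Colours mark events called higher or lower in rrc1-689 at an adjusted p of 0.05, and vertical bars are medians. Annotated retained introns, with 24 higher and 27 lower, are the kind with a median below 0 (-8.47 points). The gap around 0 is the authors' own threshold.

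Alternative 3′ splice sites moved towards the upstream acceptor. JMJ30 (JMJD5 in RefSeq), a jumonji-domain histone demethylase of the circadian clock, had the largest such change. Its intron 4 joins 1 donor to either of 2 acceptors that lie 151 bases apart. The upstream acceptor of JMJ30 was used in 79.4%, 80.3% and 85.9% of reads in the rrc1-689 libraries and in 14.7%, 16.3% and 7.91% in the Col-0 libraries. All rrc1-689 libraries lay above all Col-0 libraries, and the major form of the transcript was a different one in each genotype. The means were 81.9% ± 3.52 in rrc1-689 and 13.0% ± 4.44 in Col-0 (SD, n = 3 each), a change in log odds of 3.41 with a standard error of 0.30 (limma, adjusted p = 0.000494).

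SKIP, which encodes a splicing factor that also acts on clock transcripts, changed at the acceptor of intron 1, which lies in the 5′ UTR. Its acceptors lie 176 bases apart on the minus strand, at chr1:29001838-29001863 and chr1:29001662-29001687. The sequences are shown because the choice between these sites is what the reads measure. They are RefSeq's for TAIR10.1, 5′ to 3′ on the strand of the gene, and capitals mark the first 2 or last 2 bases of the intron.
SKIP upstream acceptor: acttgttttccgctctattgtAGtga
SKIP downstream acceptor: tcgttattgttctttgtttgcAGgtt

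The upstream SKIP acceptor took 67.2%, 68.3% and 44.7% of reads in rrc1-689 and 20.3%, 15% and 26.7% in Col-0, with no overlap between the genotypes (limma, adjusted p = 0.00438). AT1G77170 overlaps SKIP here, so strand could matter to these reads. ATU2AF65A encodes a large subunit of U2AF, the factor that binds the pyrimidine tract. Its acceptors in intron 11 lie 173 bases apart on the minus strand, at chr4:17294601-17294626 and chr4:17294428-17294453.
ATU2AF65A upstream acceptor: ttcttggttgtgctgttttacAGcct
ATU2AF65A downstream acceptor: gttctttaactcttaaaatgcAGgtg

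The upstream ATU2AF65A acceptor took 79.8%, 85.4% and 84.3% of reads in rrc1-689, against 66.5%, 55.9% and 63.7% in Col-0 (limma, adjusted p = 0.0061). Use of this acceptor was the majority form in both genotypes, and more so in rrc1-689. Retention of the short intron that ends at this acceptor was 2.33%, 2.35% and 3.48% in rrc1-689, against 14.5%, 19.9% and 21% in Col-0 (adjusted p = 0.00105). Removal of that intron thus rose while reads that skip to the downstream acceptor fell, to 121 in the 3 rrc1-689 libraries, against 238 in the 3 Col-0 libraries.

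In 3 more genes the upstream acceptor was a minor one in Col-0 and was read more in rrc1-689. In HCF107, which encodes a chloroplast RNA-binding protein needed for photosystem II, upstream acceptor use was 45.1%, 46.2% and 34.5% in rrc1-689 and 0.813%, 0% and 1.49% in Col-0. HCF109, the plastid peptide release factor gene, had 47.9%, 50.0% and 41.2% in rrc1-689 and 6.79%, 6.88% and 7.66% in Col-0. CAS1, the cycloartenol synthase of sterol biosynthesis, had 18.3%, 16.1% and 18.8% in rrc1-689, and no read over this junction among 318 event reads in Col-0, which allows a share of up to 0.943%. Each of these 3 genes passed the limma test (adjusted p of 0.000733, 0.000585 and 7.56e-05), and each was chosen for the text after its values were seen.

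The level was lower in rrc1-689 in 5 genes, AT1G02960, AT1G55340, AT4G12790, AT1G77350 and ARP9, all with an adjusted p below the threshold. In AT1G02960 the upstream acceptor had 0%, 2.78% and 21.2% in rrc1-689, against 49.0%, 63.5% and 64.0% in Col-0. In ARP9, an actin-related protein gene, the acceptors could not be paired on a shared donor, so its level is given as inclusion only. ARP9 had no inclusion read among 64 event reads in rrc1-689, which allows up to 4.69%, and 31.9%, 18.2% and 28.3% in Col-0.

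For 37 of the 39 events both acceptors share a donor and could be set side by side. Among the 33 higher in rrc1-689, the upstream acceptor ended in CAG in 15 (45.5%) and the downstream one in 21 (63.6%), where CAG ends 63.6% of 130985 introns of annotated coding transcripts. The pyrimidine content of the 20 bases before the final 3 of the intron had the same median of 60% at both acceptors. The acceptors lay 7 to 1542 bases apart, with a median of 72, and 15 pairs were within 50 bases. Over all 37 pairs, the downstream acceptor had more pyrimidines in 13 and the upstream one in 17. The inserted stretch was a multiple of 3 bases long in 9 of the 34 events that were higher.

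Most introns whose level was higher in rrc1-689, other than annotated retained introns, gained reads mainly at their 3′ end. A boundary read covers the edge between an exon and the intron, and a transcript that keeps the whole intron can give such reads at both edges. Each boundary was therefore tested on its own against the spliced junction, and 313 of 532 boundaries passed (limma, 58.8%). Of the 179 introns with a higher level, 105 had only the 3′ boundary called higher, 36 had both, 10 had only the 5′ boundary and 26 had neither, with 2 other patterns. In 6 of these introns the 5′ boundary was called higher with no read over it in rrc1-689, where spliced reads were fewer and a pseudocount was added. Of the 87 introns with a lower level, 47 had both boundaries called lower, 20 only the 5′ boundary, 9 only the 3′ boundary and 11 neither.

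Summed over the 179 introns with a higher level, the 3′ boundaries held 4038, 3759 and 4132 reads in the rrc1-689 libraries and 1847, 1920 and 1872 in the Col-0 libraries. The 5′ boundaries held 1242, 1318 and 1373 reads in rrc1-689 and 724, 763 and 809 in Col-0. Both edges were thus read more in rrc1-689, the 3′ edge by more. In the median intron, 88.9% of boundary reads lay at the 3′ edge in rrc1-689, against 72.5% in Col-0. The 24 annotated retained introns with a higher level differed from this, with 907 reads at the 5′ edge in rrc1-689 against 330 in Col-0, 1509 at the 3′ edge in rrc1-689 against 735 in Col-0, and a median 3′ share of 61.7% in rrc1-689 and 65.6% in Col-0. Of all 179 introns with a higher level, 38 had no read over the 5′ edge in any rrc1-689 library, and the 3′ edge had reads in all 179.

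A read over the 3′ boundary cannot tell a retained intron from a transcript that uses an acceptor inside the intron. This is seen directly in 25 intron events that share their spliced junction with an alternative 3′ splice site event, 20 of them higher in rrc1-689 and 16 with only the 3′ boundary called. JMJ30 is one, with 3 reads over the 5′ edge and 125 over the 3′ edge in rrc1-689, against 27 and 65 in Col-0. Among the 159 other introns with a higher level, 89 had only the 3′ boundary called higher. Whether unlisted acceptors lie in these introns was not tested. When each intron was given the smaller of its boundary counts for both edges, an alternative chosen after seeing the data, 81 events were called higher and 58 lower, in place of 208 and 83.

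**Figure D2:**
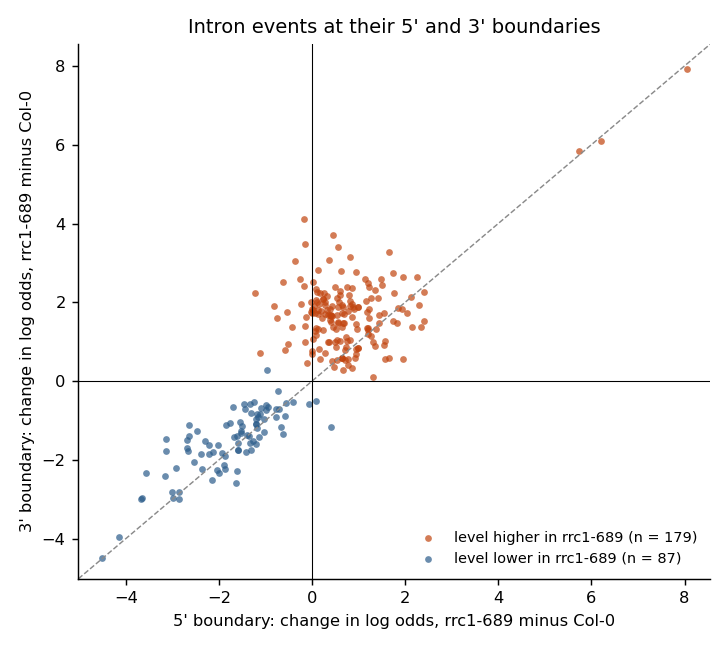
Change in natural log odds between rrc1-689 and Col-0 at the 5′ boundary (x axis) and the 3′ boundary (y axis) of each intron event, 1 point per intron. The 87 introns with a lower level lie along the dashed line of equal change, most of the 179 with a higher level lie above it, and the 3 introns at the upper right rose at both edges.

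The introns also differed in length and ending. Those with a higher level had a median length of 257 bases, against 129 for those with a lower level and 101 for annotated introns of coding transcripts. CAG ended 129 of the 179 (72.1%) and 43 of the 87 (49.4%), beside 63.6% of annotated introns. The pyrimidine content before the AG had a median of 60% in all 3 sets.

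KEA3 and PKL show the pattern in single genes. KEA3 encodes a thylakoid potassium-proton antiporter, and retention of its intron 4 was 12.9%, 12.8% and 9.38% in rrc1-689, against 0%, 1.27% and 1.2% in Col-0 (limma, adjusted p = 0.00231). All of its 40 boundary reads in rrc1-689 lay at the 3′ edge. PKL, a CHD3 chromatin remodeller, had 15.3%, 15.8% and 10% in rrc1-689, against 3.09%, 1.08% and 1.82% in Col-0 (adjusted p = 0.00207), and all of its 31 boundary reads in rrc1-689 lay at the 3′ edge. With the smaller boundary count taken for both edges, neither intron was called (adjusted p = 0.542 for KEA3 and 0.15 for PKL).

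In 3 introns a nearly complete switch was seen, with reads at both edges. These splice sites are shown because the spliced form was not read or rarely read in rrc1-689. They lie on the minus strand, the donors at chr5:8130475-8130485, chr3:20744961-20744971 and chr5:14983785-14983795 and the acceptors at chr5:8130375-8130400, chr3:20744875-20744900 and chr5:14982980-14983005, in the order below.
AT5G24060 donor: aggGTatgtcg
AT5G24060 acceptor: ggcctgataactctgtgttgcAGgca
AT3G55920 donor: cagGTtaattt
AT3G55920 acceptor: tgttcaattttggcttcttgtAGatc
ALY4 donor: aagGCaagctc
ALY4 acceptor: aatgattctgttctattgaatAGcct

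AT5G24060 had 10, 15 and 11 boundary reads and no spliced read in the rrc1-689 libraries, and 116, 108 and 136 spliced reads and no boundary read in the Col-0 libraries. Its level was thus 100% in rrc1-689 and 0% in Col-0 (limma, adjusted p = 8.19e-07). With spliced reads weighted as in the level, the counts of 0 allow a spliced share of up to 16.7% in rrc1-689 and a retained share of up to 0.417% in Col-0. The gene lies 503 kb from RRC1 on chromosome 5.

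AT3G55920 was retained at 93.8%, 90.7% and 73.9% in rrc1-689 and at 0% in every Col-0 library (limma, adjusted p = 7.93e-05). It had 46 reads over the 5′ edge and 40 over the 3′ edge in rrc1-689. ALY4, which encodes an adaptor for mRNA export, reached 100% in each rrc1-689 library, against 19.7%, 12.6% and 10.8% in Col-0 (adjusted p = 1.4e-05). Its intron starts with GC in the reference, as do 5 of the 328 spliced introns. None of these 3 introns was listed for EMS27 and MLB.

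The events in AT1G30640 and HUB2, also among the 12 with the largest rise, rest on few reads. AT1G30640 had 17 reads in rrc1-689 and 31 in Col-0, and its difference of 53 points was 30.8 without rrc1-689 replicate 1. HUB2, a histone H2B ubiquitin ligase gene, had 21 in rrc1-689 and 43 in Col-0. With the smaller boundary taken for both edges neither was called (adjusted p = 0.0875 and 0.085). Their levels in single libraries are imprecise.

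Some introns kept in most Col-0 reads were mostly spliced in rrc1-689. In AT1G67300, retention was 10%, 2.56% and 4.76% in rrc1-689, against 71.4%, 100% and 100% in Col-0 (limma, adjusted p = 0.00165). RIK, which encodes a KH-domain RNA-binding protein, had 29.7%, 20% and 25.8% in rrc1-689, against 100%, 88.1% and 94.2% in Col-0 (adjusted p = 0.0029). In both genes the form with the intron was the major one in Col-0 and the minor one in rrc1-689. RIK had 77 spliced reads in rrc1-689 and 7 in Col-0, and AT1G67300 had 38 in rrc1-689 and 3 in Col-0.

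Several of the 12 largest falls had few reads in Col-0, among them AT3G07470 with 8, AT2G27730 with 16, UMAMIT40 with 20 and AT3G07760 with 24, and their Col-0 levels reached 100% in at least 1 library each. AT5G66470, a retained intron in the 3′ UTR, rests on more reads, with 28.6%, 48.8% and 41.5% in rrc1-689 and 100%, 87.0% and 100% in Col-0 (limma, adjusted p = 0.00326). Its 5′ and 3′ edges were read unequally, with 49 and 5 reads in rrc1-689 and 117 and 4 in Col-0, and AT5G66460 overlaps it. AT4G08170, an inositol kinase family gene, included an exon at 0%, 8.0% and 0% in rrc1-689, against 52.2%, 37.9% and 51.9% in Col-0 (adjusted p = 0.00204).

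**Figure D3:**
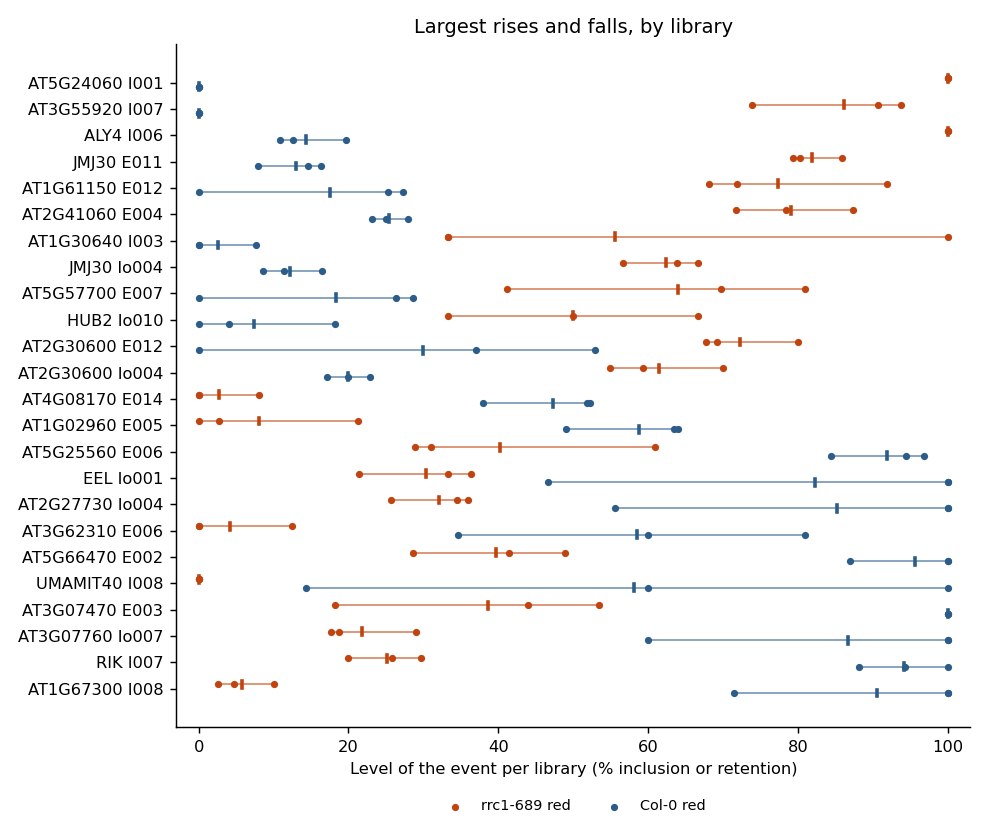
Level of each event per library (x axis, % inclusion or retention) for the 12 largest rises and the 12 largest falls, with rrc1-689 above Col-0 in each pair. Points are libraries, vertical bars means and horizontal lines ranges. Col-0 ranges are wide in several falls, such as UMAMIT40 with 14.3% to 100%.

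Core clock genes held 4 events in 3 of 29 listed genes. JMJ30 had both of its events called higher, the acceptor event above and its intron event at 63.9%, 56.7% and 66.7% in rrc1-689 against 16.5%, 11.4% and 8.57% in Col-0. TOC1, an evening pseudo-response regulator, retained its first intron at 11.5%, 8.40% and 18.8% in rrc1-689 and at 2.38%, 2.04% and 5.51% in Col-0 (limma, adjusted p = 0.0104). The TOC1 libraries did not overlap, and 52 of its 55 boundary reads in rrc1-689 lay at the 3′ edge. PRR7, a morning pseudo-response regulator, had 9.59%, 11.9% and 16.1% in rrc1-689 against 11.1%, 0% and 3.12% in Col-0, with overlapping libraries and an adjusted p of 0.073 (0.0122 without Col-0 replicate 1). With the smaller boundary count the TOC1 intron and the JMJ30 intron event were not called (adjusted p = 0.397 and 0.846), while the JMJ30 acceptor event does not use boundary reads. No event lay in CCA1, LHY, GI, ELF3 or ELF4.

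Splicing factor genes held 15 events in 9 of 61 listed genes, of which 8 were called higher, 5 lower and 2 not called. Over all 328 events, 88.7% were called, 63.4% higher and 25.3% lower. Apart from SKIP and ATU2AF65A, most of them encode SR proteins or RNA-binding proteins. The SKIP intron event Io001 was called higher, by 10.99 points (limma, adjusted p = 0.0221). That call was lost without any 1 rrc1-689 library or Col-0 replicate 1, and with a pseudocount of 0.1 (adjusted p = 0.0599). With the smaller boundary count Io001 differed by 0 points and was not called (adjusted p = 0.487). SR34, an SR protein known to splice its own transcript in several ways, had 4 events around intron 10. Its alternative acceptor was used at 41.2%, 40.9% and 41.5% in rrc1-689, against 25.4%, 20.6% and 18.3% in Col-0 (limma, adjusted p = 0.00748). The exon within that intron was included at 30.2%, 31.8% and 35.1% in rrc1-689, against 26.1%, 19.9% and 13.7% in Col-0 (adjusted p = 0.0486). This call was lost without any 1 library other than Col-0 replicate 1, with a pseudocount of 0.1 (0.0577) and with the replicate number as a block (adjusted p = 0.0921). The level of the whole intron was 16.8%, 15% and 14.9% in rrc1-689, against 7.39%, 8.05% and 7.82% in Col-0 (adjusted p = 0.0114), with more reads in rrc1-689 at the 3′ edge only (129, against 77 in Col-0).

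These SR34 events share junction reads and are not independent of each other. A short intron downstream of the same exon moved the other way, at 44.7%, 29.6% and 38.5% in rrc1-689 against 60.0%, 100% and 83.3% in Col-0 (limma, adjusted p = 0.0267). This call was lost without any 1 rrc1-689 library and with a pseudocount of 0.1 (adjusted p = 0.068). With the smaller boundary count the difference was -43.59 points and was not called (adjusted p = 0.0627). RS31, another SR protein gene, had 16.6%, 28.0% and 26% retention in rrc1-689, against 8.28%, 3.09% and 8.77% in Col-0 (adjusted p = 0.00884). Reads at its 3′ edge numbered 111 in rrc1-689 and 26 in Col-0, and those at its 5′ edge 4 in rrc1-689 and 13 in Col-0. The intron event of RS31 therefore rose at 1 edge only, and with the smaller boundary count its difference was -2.74 points (adjusted p = 0.195).

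RS2Z32, an SR protein gene with zinc knuckles, had lower retention, at 5.48%, 6.76% and 4.85% in rrc1-689 against 12.5%, 12.4% and 11.7% in Col-0 (limma, adjusted p = 0.0114). UBA2A, an RNA-binding protein gene, retained a 3′ UTR intron at 19.2%, 19.8% and 28.2% in rrc1-689, against 47.9%, 55.7% and 40.7% in Col-0 (adjusted p = 0.00726). AFC2 (FC2 in RefSeq), a LAMMER kinase that phosphorylates SR proteins, included an exon at 45.5%, 37.3% and 35.5% in rrc1-689, against 63.3%, 64.9% and 71.1% in Col-0 (adjusted p = 0.00562). In each of these 3 genes the libraries of the genotypes were apart. RBP47A, which encodes an RNA-binding protein, rose to a mean of 22% ± 1.75 in rrc1-689, against 11.5% ± 3.63 in Col-0 (SD, n = 3 each, adjusted p = 0.0286), and the call was lost without any 1 library other than Col-0 replicate 3, with edgeR (adjusted p = 0.0901) and with the smaller boundary count (1.27 points, adjusted p = 0.627). SR34b had 15%, 55.6% and 33.3% in rrc1-689 and 100%, 74.2% and 46.3% in Col-0, with overlapping libraries and an adjusted p of 0.0653 (0.0242 without Col-0 replicate 3).

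**Figure D4:**
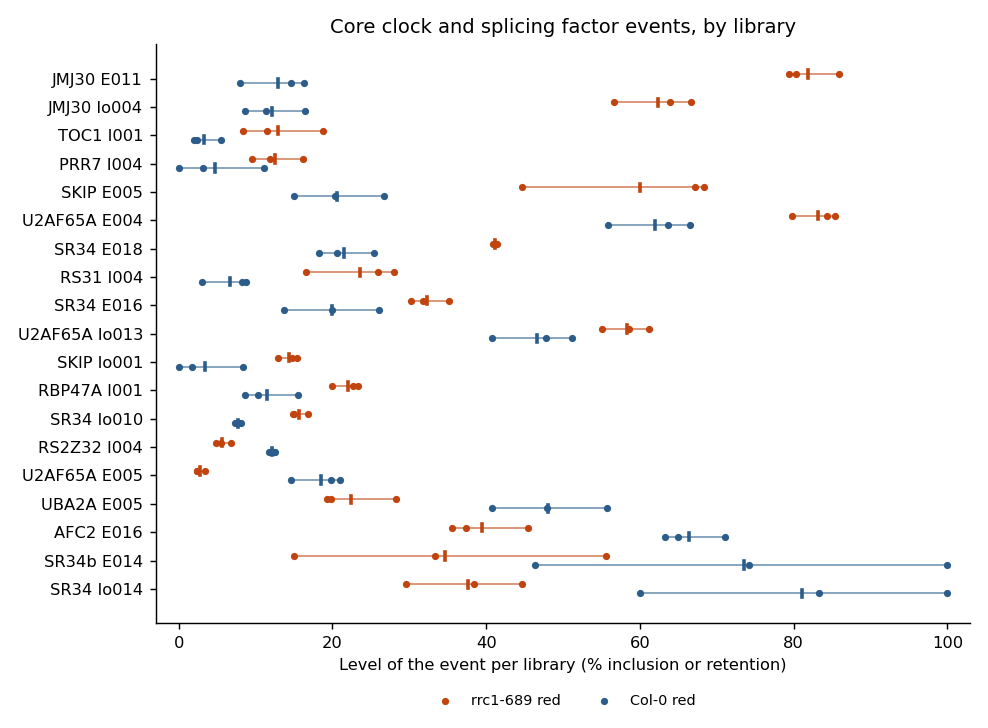
Level per library (x axis, % inclusion or retention) of the 4 core clock events and the 15 splicing factor events, with rrc1-689 above Col-0 in each pair. Points are libraries, vertical bars means and horizontal lines ranges. JMJ30 E011 has the widest gap, with 79.4% to 85.9% in rrc1-689 and 7.91% to 16.3% in Col-0.

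Of the other gene lists, chloroplast genes held 5 events in 3 of 58 genes, with 4 called higher, beside 63.4% of all 328 events. KEA1, a potassium-proton antiporter of the chloroplast envelope with 22 boundary reads in each genotype and 44 spliced reads in rrc1-689 against 293 in Col-0, had 33.3%, 14.8% and 21.1% retention in rrc1-689 and 4.95%, 3.0% and 2.91% in Col-0 (limma, adjusted p = 0.00236). EX1, a mediator of singlet oxygen signalling in plastids, had retention of intron 8 at 8.55%, 10.5% and 8.47% in rrc1-689 and at 2.97%, 3.03% and 4.00% in Col-0 (adjusted p = 0.00562). A second EX1 intron event, in the 3′ UTR, was higher too (adjusted p = 0.0198, lost without rrc1-689 replicate 1 or 3 or Col-0 replicate 3), and its alternative donor had 30.2%, 30% and 36.2% in rrc1-689 and 20.8%, 16.5% and 25.5% in Col-0 without a call (adjusted p = 0.0565, or 0.0434 without Col-0 replicate 3). EX1 and KEA1 libraries did not overlap in any of these events. With the smaller boundary count the KEA1 intron and both EX1 introns were not called (adjusted p of 0.209, 0.945 and 0.329).

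Flowering genes held 2 events. FLM (MAF1 in RefSeq), a MADS-box repressor of flowering known for its splice forms, had 20%, 23.8% and 20% in rrc1-689, against 9.02%, 7.93% and 8.31% in Col-0 (limma, adjusted p = 0.00434). FLK, an RNA-binding protein of the flowering pathway, averaged 16.9% ± 3.73 in rrc1-689 and 9.53% ± 3.86 in Col-0 (SD, n = 3 each, adjusted p = 0.0757, or 0.0394 without Col-0 replicate 2). BES1, a brassinosteroid transcription factor, was the 1 event of 44 auxin and growth genes and was lower, at 84.7%, 85.6% and 86.4% in rrc1-689 against 89.7%, 92.2% and 95.5% in Col-0 (adjusted p = 0.0363). The BES1 call was lost when any 1 library other than Col-0 replicate 1 was left out (adjusted p of 0.0583 to 0.0904), and with the replicate number as a block (adjusted p = 0.0511). VLN3, an actin-bundling villin, and TOM2A, a membrane protein gene, held 3 events, all called higher, beside 63.4% of all 328 events. The call of the VLN3 acceptor event was lost without any 1 rrc1-689 library or Col-0 replicate 2. That call was also lost with a pseudocount of 0.1 (limma, adjusted p = 0.0858) and with the block (adjusted p = 0.0584). The VLN3 intron event was not called with the smaller boundary count (adjusted p = 0.853). The 54 light signalling genes and the 30 chlorophyll and carotenoid genes held none. The median difference was 29.9 points over the 4 clock events and 10.5 over the 15 splicing factor events, beside 8.41 over all 328. The clock median rests on the 2 JMJ30 events, which share a junction, at 68.9 and 50.3 points, since TOC1 differed by 9.57 points and PRR7, not called, by 7.78.

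Skipped exons were mostly included more in rrc1-689. In AT1G61150, a 26-base exon in the 5′ UTR was included at 71.8%, 68.2% and 91.9% in rrc1-689 and at 25.2%, 0% and 27.3% in Col-0 (limma, adjusted p = 0.0186, or 0.0629 without rrc1-689 replicate 3). In AT2G41060, an RNA-binding protein gene, a 3′ UTR exon had 78.4%, 71.7% and 87.3% in rrc1-689 and 23.1%, 25% and 28.0% in Col-0 (adjusted p = 0.00115), with EEL overlapping it. XBAT35, a ubiquitin ligase gene named here after its values were seen, had 92.7%, 93.6% and 94.4% in rrc1-689 and 68.8%, 69.1% and 58.4% in Col-0 (adjusted p = 0.00105). In each of these genes the exon was included more in every rrc1-689 library than in any Col-0 library.

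Alternative donors were few. PP2C52, a protein phosphatase gene, had 59.1%, 51.1% and 45.7% in rrc1-689 and 5.71%, 18.8% and 9.09% in Col-0 (limma, adjusted p = 0.00283). AT5G19430 had 59.5%, 59.4% and 52.5% in rrc1-689 and 24.4%, 28.0% and 0% in Col-0 (adjusted p = 0.0322, lost without any 1 rrc1-689 library), and 2 intron events of the same gene were also called higher, of which I005 was 0.812 points with the smaller boundary count and not called (adjusted p = 0.379). AT5G53850 averaged 31.2% ± 6.98 in rrc1-689 and 12.9% ± 2.25 in Col-0 (SD, n = 3 each, adjusted p = 0.00748).

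More than 1 event was listed in 48 genes, and 3 or more in 8. AT5G25560 had 3 events in its 5′ UTR, all lower in rrc1-689 and all called, led by a retained intron at 28.9%, 60.9% and 31% in rrc1-689 against 96.8%, 94.4% and 84.4% in Col-0. AT5G25570 overlaps it. In RLM3, a disease resistance gene, 3 intron events were called, 2 higher in rrc1-689 and 1 lower. Event Io011 was higher by 10.73 points (limma, adjusted p = 0.00272), with under 10 reads in at least 1 library. With the smaller boundary count Io011 differed by -0.7952 points and was not called (adjusted p = 0.0616). The RLM3 intron event I011 had 2.04%, 2.56% and 1.64% in rrc1-689 against 11.4%, 8.16% and 9.01% in Col-0, and I010 had 17.2%, 6.85% and 7.02% in rrc1-689 against 2.92%, 4.13% and 2.25% in Col-0 (limma, adjusted p = 0.00413 and 0.016). RLM3 event reads for I010 numbered 134 in rrc1-689 and 426 in Col-0. The I010 difference was 7.27 points, 3.83 without rrc1-689 replicate 1, and it was not called with the smaller boundary count (adjusted p = 0.085).

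AT2G30600 had 1 Col-0 library apart from the others in its events I010 and E012. Its intron event I010 had 52.1%, 51.0% and 50.3% in rrc1-689 and 29.8%, 100% and 24.2% in Col-0. The 100% came from Col-0 replicate 2, which had 18 boundary reads and no read over the junction, and the mean difference was -0.20 points (limma, adjusted p = 0.69). Without that library the difference was 24.1 points (adjusted p = 0.0126). The exon event E012 uses the same junction and had 67.6%, 80.0% and 69.2% in rrc1-689 and 37.0%, 0% and 52.9% in Col-0 (adjusted p = 0.0566, or 0.022 without Col-0 replicate 2 and 0.026 without Col-0 replicate 3). Another intron event of AT2G30600, Io004, was called higher in rrc1-689, by 41.41 points (limma, adjusted p = 0.00165). With the smaller boundary count Io004 differed by 8.125 points and was not called (adjusted p = 0.147).

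Of the 328 events, 206 lay in coding regions, 37 in 5′ UTRs, 21 in 3′ UTRs, 60 in parts whose annotation differs between isoforms and 4 in noncoding transcripts. Within 1 Mb of RRC1 (chromosome 5, 8633114 to 8640217) lay 8 events in 6 genes, which is 1.04% of the annotated genes there, beside 0.712% of all annotated genes. Of these 8 events 3 were higher in rrc1-689 and 5 lower.

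EMS27 and MLB, whose libraries played no part in choosing the rrc1-689 events, allowed the same events to be read again. The authors listed 136 of the events for that comparison too, 41.5% of the 328 for rrc1-689 and 41.8% of the 325 for EMS27. All 136 differed in the same direction, 98 higher and 38 lower in the mutants. In EMS27 against MLB, 130 of the 136 passed the limma test, in a table where 291 of 325 events passed (89.5%). Presence in that table already required a difference, so the share called says little. The second list left the direction free only in part. An event with a fraction below 0.05 in both controls could be listed only as higher in both mutants. How many shared events this covers was not counted.

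The shared events included 23 alternative 3′ splice sites, all in the same direction, with a median absolute difference of 21.6 points in rrc1-689 and 32.9 in EMS27. Over all shared events the median was 14 points in rrc1-689 and 17.6 in EMS27, and EMS27 had the larger difference in 87. That count is in percentage points. In log odds, EMS27 had the larger difference in 70 of the 134 shared events read over the same junctions. For the 23 alternative 3′ splice sites, EMS27 had the larger difference in 15 by points and in 11 by log odds. Pearson's r between the differences was 0.942 across the 136 events, which were selected for a difference in both tables and are not independent replicates. JMJ30 upstream acceptor use was 77.5%, 85.0% and 81.5% in EMS27 and 7.89%, 9.38% and 6.38% in MLB, and HCF107 had 40.9%, 43.6% and 31.3% in EMS27 and 2.96%, 0% and 0% in MLB. Neither event passed the interaction test described next (adjusted p = 0.879 and 0.979).

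The difference between the mutant effects was tested in an interaction contrast over the 134 shared events read over the same junctions, and 3 passed (limma, 2.24%), all larger in EMS27. VLN3 intron event Io005 had 13.2%, 15.6% and 16.4% in rrc1-689 and 7.78%, 7.56% and 3.79% in Col-0, but 32.5%, 48.1% and 45.9% in EMS27 and 2.38%, 4.39% and 3.26% in MLB (adjusted p = 0.0292). EX1 intron 8 had 24.5%, 19.7% and 22.2% in EMS27 and 0.901%, 2.2% and 2.22% in MLB, beside the rrc1-689 values above (adjusted p = 0.0292). TOM2A used its upstream 5′ UTR acceptor at 9.68%, 7.6% and 18% in rrc1-689 and 1.83%, 4.23% and 1.56% in Col-0, against 18.2%, 11.4% and 24.7% in EMS27 and 0% in each MLB library (adjusted p = 0.0482), and its rrc1-689 difference of 9.22 points was 6.1 without rrc1-689 replicate 3. At an unadjusted p of 0.05, 13 of the 134 passed. None of the 3 calls held with the replicate number as a block, where 0 of 134 passed and 10 had an unadjusted p below 0.05. With edgeR's quasi-likelihood test 4 passed. Leaving out any rrc1-689 library, Col-0 replicate 1 or 2, EMS27 replicate 2 or 3 or MLB replicate 3 also left 0 calls, with 10 to 14 at an unadjusted p of 0.05, and without EMS27 replicate 1 there was 1.

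**Figure D5:**
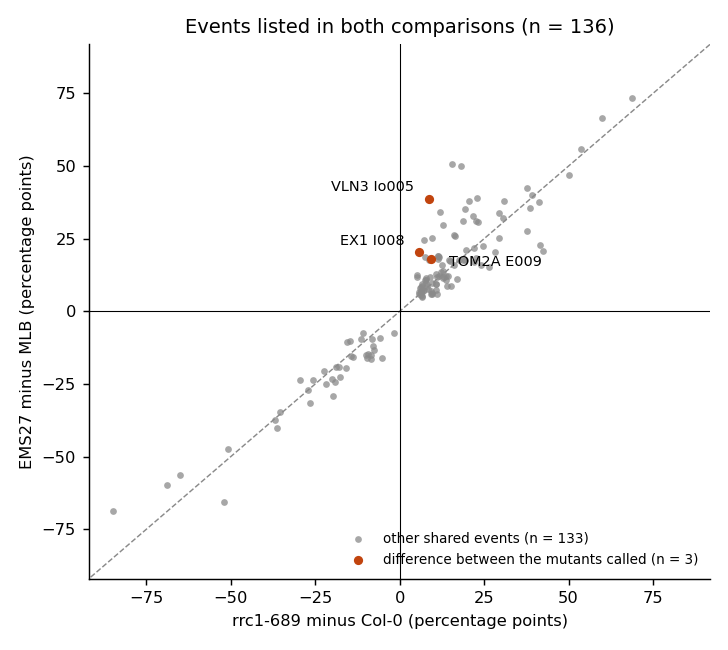
Difference in mean level in percentage points for rrc1-689 minus Col-0 (x axis) and EMS27 minus MLB (y axis), 1 point per event listed in both comparisons. All 136 points lie in the quadrants of equal sign, the dashed line marks equal differences, and the 3 labelled events lie above it.

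The 192 events listed for rrc1-689 alone had a median absolute difference of 11.8 points, against 14 for the shared ones. In 19 of the 192 the gene had another event in the EMS27 table. Reads of the 192 events in EMS27 and MLB were not analysed here, so their absence from that list does not show that they were unchanged there.

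Some of the event genes were also listed for a change in gene-level expression in the other mutant. In the authors' deposited table of MLB over EMS27 in red light, 27 of the 270 event genes were listed (10%), which is 2.36% of its 1146 genes, and 18 of the 27 were higher in MLB. Of the genes tested for that table, 5.99% were listed. The authors' deposited table gave a log2 fold change of MLB over EMS27 of 2.37 for BT1, 2.33 for KEA1, 1.93 for RLM3 and 1.93 for AT1G56500. No gene-level comparison of rrc1-689 and Col-0 was used here, so expression and splicing cannot be set side by side in the same libraries.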

How the data were processed

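RNA-seq of whole seedlings was done on an Illumina NextSeq 500, per the labels' protocols. Reads were aligned with TopHat2 2.1.1 to TAIR10, per the submitters' processing notes, and splicing was tested by the authors with Aspli 1.9. For the strand setting of the counting, nothing is stated in the labels or file headers. The deposited tables give read counts per library for junctions and exon-intron boundaries. The authors' inclusion and retention values are fractions pooled over the replicates, listed with the authors' p-values and false discovery rates. The gene-level tables of the authors give log2 fold changes.

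For each library, inclusion reads were divided by their sum with the exclusion reads, which were weighted by the number of inclusion junctions (2 for introns). This gave the deposited fraction within 0.0001 in 321 events for rrc1-689 and 322 for Col-0, and in all 328 with the authors' weights, which count exclusion doubly in 7 events with 1 inclusion junction. The log odds, natural log with 0.5 added to each count, were fitted with limma 3.58.1 in R 4.3.3 over all 328 events, adjusted by Benjamini-Hochberg and called at 0.05. The fit was tested on simulated data. edgeR 4.0.16 was an alternative. Events of EMS27 and MLB were fitted likewise, and the 134 shared events with the same junctions were tested for an interaction. Intron boundaries were fitted separately, a test added after seeing the data.

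Named events are the 12 largest rises and falls, the 3 largest of each kind, those of listed genes or of genes with 3 or more events, and the 6 with the lowest interaction p. Others are said to be chosen after their values were seen. The members and gene lists were chosen with earlier results of these data known. Of 462 list entries, 415 matched 1 gene. Genome sequence and annotation are RefSeq's TAIR10.1, which held 327 of the 328 spliced introns. Some site sequences are not reported here. The event tables do not hold library totals, so depth is given as event reads, and limits from a count of 0 (3 reads) cover counting error only. Pairs of libraries of a group differed by more than sampling noise, and none was treated as a duplicate.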

Additional observations from a re-analysis of the deposited data

Results flagged for a closer look

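The effect differed between the mutants in 3 of the 134 shared events tested, all larger in EMS27, but no call was left with the replicate number as a block (0 of 134, 10 at an unadjusted p of 0.05) or in 8 of the 12 fits without 1 library, and edgeR called 4. The difference of differences, rrc1-689 minus Col-0 less EMS27 minus MLB, was -30.13 percentage points for the VLN3 intron event Io005, with a log odds of -2.03 ± 0.39 (SE) and a limma adjusted p of 0.0292. For EX1 intron event I008 it was -14.51 points, with a log odds of -1.59 ± 0.32 (SE) and an adjusted p of 0.0292. For the TOM2A acceptor event E009 it was -8.858 points, with a log odds of -2.27 ± 0.51 (SE) and an adjusted p of 0.0482. Each was higher in all 3 libraries of both mutants than in the libraries of their controls. VLN3 Io005 had 130 of its 131 boundary reads in rrc1-689 at the 3′ edge. Differences between the alleles and between the lines they were compared in cannot be told apart here.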

How the results depend on the processing

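The counts of called events kept within 1.5 times for rrc1-689 under all settings tried except the smaller boundary count. They were 300 with a pseudocount of 1, 268 with 0.1, 274 of 306 events with at least 10 reads in every library, 313 with edgeR and 293 with exclusion reads counted once. Leaving out 1 library gave 250 to 281 called, 175 to 202 higher and 75 to 81 lower, and 115 to 122 shared events called for EMS27. The interaction count was 0 to 3 without 1 library, the reduced group being assumed to vary like the others. With the smaller boundary count for both edges, chosen after seeing the data, 139 events were called, 81 higher, with 63 shared events for EMS27 and 0 for the interaction (9 at an unadjusted p of 0.05).

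Replicate numbers did not pair the libraries: the correlations of same-numbered deviations were -0.0778, -0.0474 and -0.000711 for rrc1-689 and Col-0, and 0.0317, -0.024 and 0.109 for EMS27 and MLB. With the replicate number as a block, 284 events were called, 203 higher and 81 lower, 123 shared events for EMS27 and 0 for the interaction.

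Of 72 named events, 63 could be fitted under every setting, and 42 of these kept direction and call under all but the smaller boundary count. The other 9 had too few reads for the minimum of 10, and kept both under the remaining settings apart from the smaller boundary count. With that count AT1G30640 I003, HUB2 Io010 and RLM3 Io011 lost their calls. AT2G30600 I010 changed sign on the log odds scale with edgeR (mean difference -0.1955 points) and without Col-0 replicate 2 (24.13 points), with -13.76 to 24.13 points over the libraries left out. With the smaller boundary count the difference was -2.743 points for RS31 I004, 0 for KEA3 I004, -1.309 for SR34 Io010, -0.4102 for HINT 2 Io002, -0.2752 for JMJ30 (JMJD5) Io004, -0.04967 for VLN3 Io005 and -18.44 for ATU2AF65A Io013. That setting uses fewer reads by construction. Low reads limit single levels, with 22 events under 10 reads in at least 1 library.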

Other observations

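Among shared events outside those called for an interaction, AT5G08650 had the next lowest p. Its event E005 had 9.71%, 13.9% and 16.3% in rrc1-689 and 0.709%, 2.93% and 0% in Col-0, against 34.3%, 36.1% and 32.2% in EMS27 and 0% in each MLB library, with an interaction adjusted p of 0.14 (limma).

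At the authors' threshold, the listed events with the smallest differences in fraction were ABCI10 I003 at 0.05, UKL2 I009 at 0.0506 and DI19 I001 at 0.0511. The highest listed false discovery rates were 0.0499 for AT1G15885 I001, 0.0492 for AT1G06590 I005 and 0.0489 for AT1G17145 I003.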
